A study of Homo sapiens and Homo sapiens
Mus with 12 samples.

Results

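TNFRSF21, also called death receptor 6, and 9 other genes of the death receptor machinery were followed in the bladder cancer cell line UM-UC-3 after knockdown (KD) of the adhesion protein cadherin 11 (CDH11). TNFRSF21 was chosen for its fall in cultured CDH11 KD cells, so its values in culture are a description without a test. Earlier results of these data were known when the other members and the gene lists below were chosen, so their calls are not independent support. The other members were selected by name for their place in the same machinery: the receptors TNFRSF10A, TNFRSF10B, TNFRSF1A, FAS and TNFRSF12A, the decoy receptor TNFRSF10D, the adaptor FADD, the initiator caspase CASP8 and its regulator CFLAR. These are 10 of 21466 genes analysed in the culture table and of 26813 human genes listed for the tumors.

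RNA-seq covered 9 cultured libraries and 15 xenograft tumors grown from such cells. Every cell pool carried a GIPZ lentiviral shRNA vector and had been sorted as a GFP-positive pool. The control, shCtrl, carried the nonsilencing shRNA and is marked WT in the treatment label. The KD pools carried 1 of the hairpins against CDH11, sh#1 or sh#2. There were 3 cultured libraries and 5 tumors per pool. For the tumors, cells in Matrigel were placed under the skin of male BALB/cAJcl-nu/nu mice aged 5 weeks, and tissue was taken 4 weeks later. Nude mice lack T cells, while other mouse cells can enter the tumor. Each group descends from 1 sorted pool, and nothing in the labels says that replicates were separate infections, so the p-values describe the spread between these libraries.

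Death receptors are members of the TNF receptor superfamily that carry a death domain in their cytoplasmic tail. When ligand clusters a receptor such as FAS, TNFRSF10A or TNFRSF10B, the adaptor FADD is drawn to the death domain and recruits procaspase-8, the product of CASP8, which then cleaves itself into active form. CFLAR encodes c-FLIP, which joins the same complex and tunes the activation of caspase-8, and TNFRSF1A mainly assembles a ubiquitin and kinase complex that signals to NF-κB before any death complex forms. Tumor cells commonly keep these receptors at the cell surface, which is why TRAIL receptors have been tried as drug targets.

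TNFRSF21 lies on chromosome 6 (hg38, 47231532 to 47309905, minus strand, ENSG00000146072) and FADD on chromosome 11 (70203296 to 70207390, plus strand, ENSG00000168040). The 250 bases before the start of each gene are shown because these were the members with the largest falls in culture. They come from RefSeq (GRCh38.p14), which had promoter entries for 6 of the 10 members. Capitals mark the GC box GGGCGG, read on either strand and so also as CCGCCC, and the E-box CACGTG, which reads the same on both strands. The TNFRSF21 stretch is chr6:47309906-47310155 on the minus strand, and the FADD stretch is chr11:70203046-70203295 on the plus strand.
TNFRSF21: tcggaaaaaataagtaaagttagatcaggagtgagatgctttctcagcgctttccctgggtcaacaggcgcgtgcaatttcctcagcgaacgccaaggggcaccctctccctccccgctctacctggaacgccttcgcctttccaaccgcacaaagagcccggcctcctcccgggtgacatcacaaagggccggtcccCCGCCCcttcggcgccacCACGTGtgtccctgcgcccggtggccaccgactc
FADD: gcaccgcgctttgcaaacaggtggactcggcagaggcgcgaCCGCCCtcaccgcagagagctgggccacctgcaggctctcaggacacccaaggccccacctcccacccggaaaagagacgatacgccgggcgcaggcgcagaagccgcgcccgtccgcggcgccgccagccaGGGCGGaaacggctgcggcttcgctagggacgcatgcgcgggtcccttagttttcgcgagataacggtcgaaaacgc

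Both stretches are rich in G and C, with 62% in TNFRSF21 and 68.8% in FADD. TNFRSF21 held 1 GC box, 47 to 52 bases before the start, and 1 E-box at 29 to 34 bases. FADD held 2 GC boxes, at 72 to 77 and 204 to 209 bases, and no E-box. A GC box stood in 42.6% of all 35116 RefSeq promoter entries over the same length, and the E-box in 6.34%. These matches describe the letters only.

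Totals on genes were 2273182 to 2777019 counts per cultured library and 414849 to 1248977 human counts per tumor. The targeted gene was close to its detection limit in culture, with 2, 4 and 4 counts of CDH11 in shCtrl, 0, 0 and 1 with sh#1 and 1, 2 and 0 with sh#2, and it was not tested there. The paper reported significantly lower CDH11 mRNA and protein in the KD cells than in shCtrl cells. In tumors human CDH11 changed by −1.67 on the log2 scale with sh#1 (edgeR quasi-likelihood test, adjusted p = 0.026) and by −0.73 with sh#2 (adjusted p = 0.347). In culture 3 of 5 epithelial markers had counts, with EPCAM and CDH1 at 0, and their sum was 249 to 280 normalized CPM in shCtrl, 314 to 321 in sh#1 and 236 to 251 in sh#2 libraries. The 5 mesenchymal markers VIM, FN1, CDH2, ZEB1 and SPARC summed to 2524 to 2713 in shCtrl, 2455 to 2681 in sh#1 and 3692 to 4046 in sh#2 libraries, so the sum was higher with sh#2, and its part in the results of sh#2 was not tested. Of 6 urothelial markers, UPK1B and UPK3A had no count in any cultured group, KRT20 had counts with sh#2 only and UPK2 in shCtrl only. The 6 summed to 1.70 to 4.11 in shCtrl, 1.28 to 2.88 in sh#1 and 8.59 to 10.5 in sh#2 libraries. This sum was also higher with sh#2, and its part in the results of sh#2 was not tested. Mouse genes took 10.4% to 30.02% of the counts of a tumor, the highest share being in the sh#1 tumor 1, which also had the lowest human total. The tumor libraries of each group formed a separate library mix, so group and mix cannot be told apart in tumors. In bulk libraries a lower share of cells carrying an RNA and less RNA per cell cannot be told apart either.

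TNFRSF21 has a death domain but no established TNF-family ligand, and it has been linked to neuronal degeneration and T helper cell activation. In culture its normalized CPM, CPM being counts scaled to a common TMM-adjusted library size, was 26.4, 20.5 and 20.6 in the shCtrl libraries. It was 3.28, 5.22 and 8.10 in sh#1 libraries and 5.13, 4.78 and 6.33 in sh#2 libraries. All 6 KD libraries lay below all 3 shCtrl libraries, and the hairpins overlapped each other. The share of all genes that separate in this way was not counted, here or for the genes below. No other annotated gene shares its exons. The levels rest on 50 to 67 counts per shCtrl library and 8 to 23 per KD library. The log2 fold change was −2.01 (SE 0.23) for both hairpins together, −1.98 (SE 0.25) for sh#1 and −2.05 (SE 0.27) for sh#2, and the hairpins differed by 0.06 (SE 0.34). Among the 9859 genes that passed the low-count filter, this was the fall of rank 8 when both hairpins were compared with shCtrl.

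**Figure D1:**
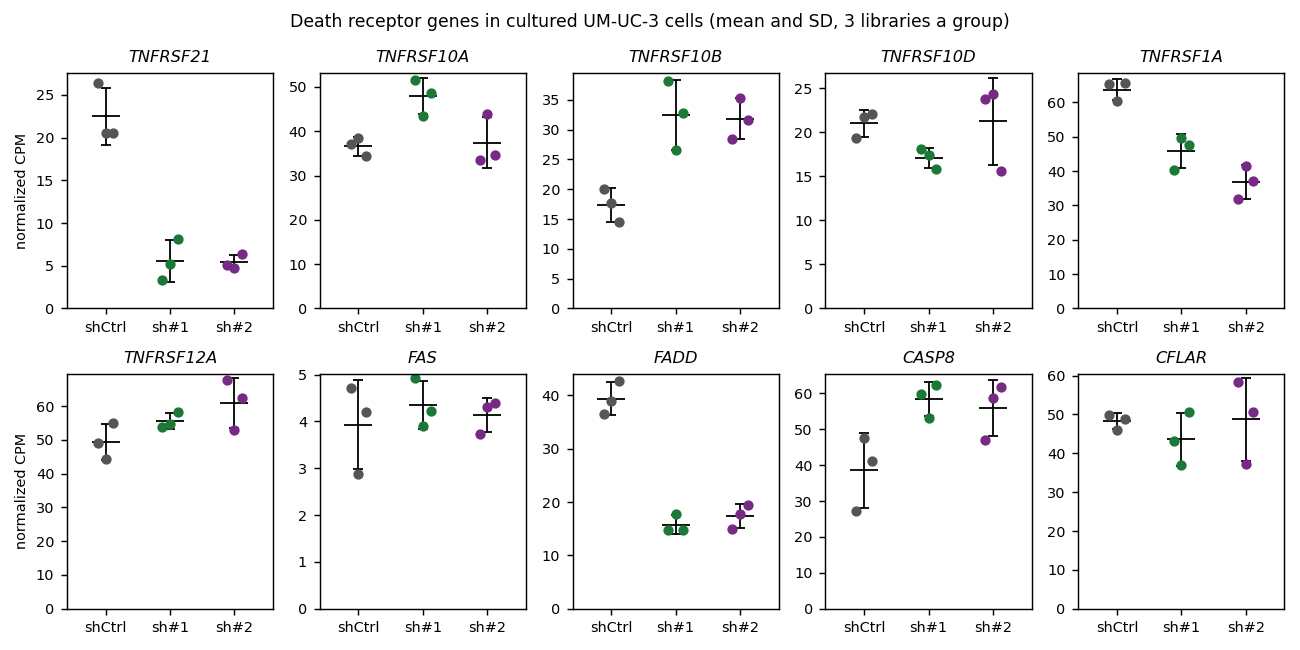
Normalized CPM (vertical axes, from 0) of the 10 genes in each cultured library, by pool (horizontal axes), with 1 point per library and the mean ± SD of 3. TNFRSF21, FADD and TNFRSF1A sit lower in all 6 KD libraries than in all 3 shCtrl libraries, and TNFRSF10B sits higher.

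Of the other 9 members, all of which passed the low-count filter in culture, 4 were called between CDH11 KD and shCtrl at an adjusted p under 0.05 (edgeR quasi-likelihood test, Benjamini-Hochberg over all genes tested). TNFRSF10B and CASP8 rose, where 9.12% of all genes tested were called higher. FADD and TNFRSF1A fell, where 8.32% of all genes were called lower. The median log2 fold change of the 9 was 0.11, against 0.00 for all genes tested. The calls were split in direction between receptors and between the adaptor and its caspase.

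FADD, the adaptor that links death domains to caspase-8, was at 36.6, 39.0 and 42.7 normalized CPM in shCtrl. It was at 14.8, 17.8 and 14.8 in sh#1 and at 14.9, 17.7 and 19.5 in sh#2 libraries. No KD library reached the shCtrl range. The log2 fold change was −1.25 (SE 0.14, adjusted p = 1.09e-05, edgeR), a mean of 39.4 ± 3.06 (SD, n = 3) against 16.6 ± 2.02 (SD, n = 6). This was the fall of rank 82 of 9859. The annotated antisense gene ENSG00000254721 shares 59.2% of the exonic bases of FADD, and the use of strand in the counting is not stated, so reads of the pair cannot be told apart.

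TNFRSF1A, the main receptor of soluble TNF, lies on chromosome 12 (6328757 to 6342114, minus strand, ENSG00000067182) and shares no exonic base with another annotated gene. It had 65.3, 60.3 and 65.5 normalized CPM in shCtrl libraries. The values were 40.2, 49.6 and 47.6 with sh#1 and 31.7, 41.6 and 37.0 with sh#2. All 6 KD libraries were below the shCtrl libraries. TNFRSF1A fell by 0.62 on the log2 scale (SE 0.13, adjusted p = 0.00383, edgeR) with both hairpins, by 0.48 with sh#1 and by 0.79 with sh#2, and the hairpins themselves did not differ past the threshold (0.32, SE 0.14, adjusted p = 0.0859).

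TNFRSF10B, the TRAIL receptor DR5 and a known target of several stress pathways, moved the other way. It lies on chromosome 8 (23020133 to 23069031, minus strand, ENSG00000120889). Its normalized CPM was 20.1, 17.6 and 14.5 in shCtrl, 38.1, 26.5 and 32.8 in sh#1, and 28.5, 35.4 and 31.7 in sh#2 libraries. The lowest KD library was above the highest shCtrl library. The log2 fold change was 0.89 (SE 0.17, adjusted p = 0.00147, edgeR) with both hairpins, 0.90 with sh#1 and 0.87 with sh#2. RHOBTB2, on the opposite strand, shares 7.52% of its exonic bases.

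TNFRSF10A, the TRAIL receptor DR4, lies on the same strand of chromosome 8 (23190452 to 23225102, ENSG00000104689), and the opposite-strand genes TNFRSF10A-DT and TNFRSF10A-AS1 share 9.09% and 7.65% of its exonic bases. It had 37.0, 38.5 and 34.3 normalized CPM in shCtrl and 51.7, 43.5 and 48.6 in sh#1 libraries. In sh#2 libraries it had 33.6, 43.96 and 34.6, overlapping shCtrl. It rose with sh#1 (log2 fold change 0.39, SE 0.13, adjusted p = 0.0268, edgeR) and not past the threshold with sh#2 (0.03, SE 0.14) or with both (0.23, adjusted p = 0.313). The difference between the hairpins was itself called at 0.36 (adjusted p = 0.0479), but this call was lost in 7 of 14 alternatives, among them DESeq2 and leaving out any of 5 single libraries (shCtrl 3, sh#1 1, sh#1 3, sh#2 1 or sh#2 3). The sh#1 call was lost in 4 of 14.

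TNFRSF10D, a decoy receptor that binds TRAIL but has a truncated death domain, had 19.3 to 22.1 normalized CPM in shCtrl, 15.9 to 18.04 in sh#1 and 15.6 to 24.4 in sh#2 libraries. The sh#1 libraries were below shCtrl, while sh#2 libraries lay on both sides of it. Neither comparison was called (adjusted p = 0.273 and 0.956, edgeR). FAS, the receptor of FAS ligand (chromosome 10, 88953813 to 89029605, plus strand), was the least counted member at 7 to 12 counts per library. Its difference of 0.11 had an SE of 0.31, so changes of that size were not detectable at this depth.

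TNFRSF12A is the TWEAK receptor Fn14 (chromosome 16, 3018445 to 3022383, plus strand), a small member without a death domain. It had 49.2, 44.3 and 54.9 normalized CPM in shCtrl, 53.7, 54.8 and 58.1 in sh#1, and 67.7, 53.0 and 62.3 in sh#2 libraries. It was called higher with sh#2 alone (0.30, SE 0.12, adjusted p = 0.0490, edgeR). That call was lost in 9 of 14 alternatives.

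CASP8 lies on chromosome 2 (201233443 to 201361836, plus strand, ENSG00000064012), and had 27.2, 47.6 and 41.2 normalized CPM in shCtrl libraries. It had 59.9, 53.0 and 62.4 with sh#1 and 47.1, 58.8 and 61.8 with sh#2. All sh#1 libraries were above shCtrl, and the lowest sh#2 library lay just under the highest shCtrl library. CASP8 rose by 0.57 on the log2 scale (SE 0.16, adjusted p = 0.0174, edgeR). Without the shCtrl library 1, the lowest of the 9, the change was 0.37 (adjusted p = 0.123), and without the shCtrl library 3 it was 0.62 (adjusted p = 0.0537).

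CFLAR, which lies near CASP8 on the same chromosome and strand (201116154 to 201176687), had 45.9 to 50.0 normalized CPM in shCtrl, 36.9 to 50.7 in sh#1 and 37.3 to 58.3 in sh#2 libraries. The KD libraries spread around the shCtrl range, and the difference was −0.06 (SE 0.14, adjusted p = 0.801, edgeR). Setting the complex side by side, per count of CASP8 there were 0.82 to 1.35 counts of FADD in shCtrl libraries and 0.24 to 0.34 in KD libraries, and these ranges did not overlap. For CFLAR they were 0.97 to 1.84 in shCtrl and 0.63 to 1.24 in KD libraries, which overlapped. The ratio of TNFRSF10A to TNFRSF10B counts was 1.84 to 2.37 in shCtrl, 1.35 to 1.64 in sh#1 and 1.09 to 1.24 in sh#2 libraries. The ratios are given as a description.

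Hairpin by hairpin in culture, 5 of the 9 members other than TNFRSF21 were called with sh#1 (3 higher, 2 lower), where 11.8% of all genes were called higher and 10.6% lower. With sh#2 5 were called as well (3 higher, 2 lower), where 19.5% were called higher and 18.8% lower. TNFRSF10B, CASP8, TNFRSF1A and FADD were called with each hairpin in the same direction. Between sh#1 and sh#2, 1 member was called higher in sh#1 and 0 lower (unadjusted p under 0.05 in 2 of the 10, 0 by DESeq2), where 11.2% of all genes were called higher and 13.5% lower. Both hairpins share the shCtrl libraries.

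**Figure D2:**
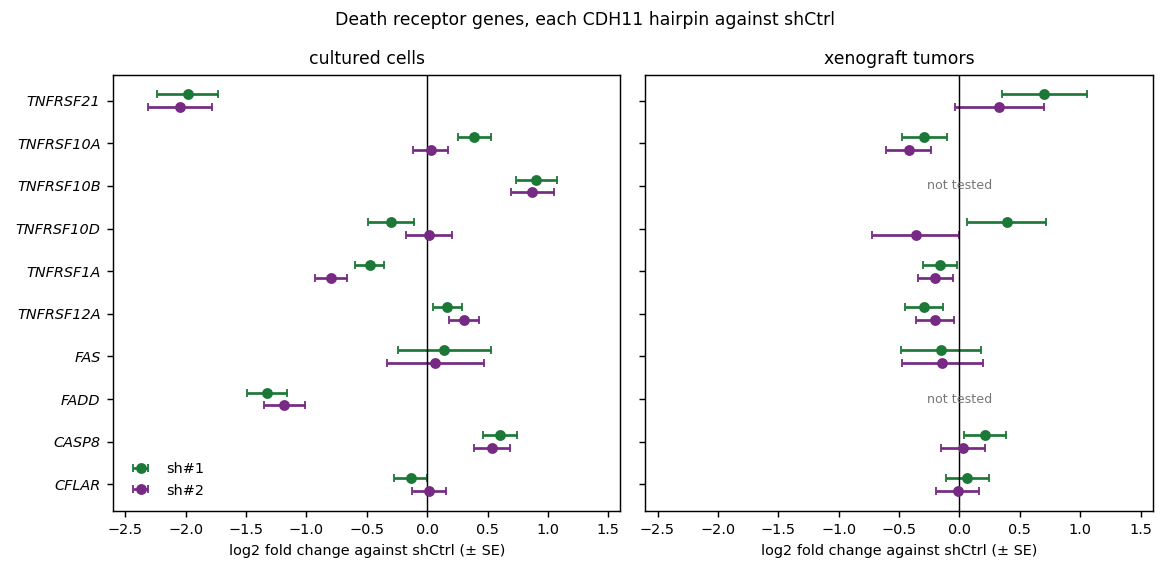
Log2 fold change (horizontal axes, ± SE) of the 10 genes (vertical axis) for sh#1 and sh#2 against shCtrl in cultured cells and in tumors. In culture the hairpins lie near each other for TNFRSF21 (−1.98 and −2.05), FADD (−1.32 and −1.18) and TNFRSF10B (0.90 and 0.87), while in tumors no gene passed the threshold and TNFRSF10B and FADD were not tested.

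Levels were compared between genes per kilobase of the canonical GENCODE transcript, in culture only. In shCtrl libraries TNFRSF12A was highest at 50.6 ± 5.43 normalized CPM per kilobase (SD, n = 3), followed by TNFRSF1A at 29.4 ± 1.38 and FADD at 23.1 ± 1.79. CASP8 at 14.5 ± 3.92 and TNFRSF10A at 13.6 ± 0.80 did not differ beyond their spread, and neither did TNFRSF21 at 6.25 ± 0.94 and TNFRSF10D at 5.95 ± 0.43. TNFRSF10B at 4.35 ± 0.70, CFLAR at 3.30 ± 0.14 and FAS at 1.06 ± 0.26 were lowest. The place of CFLAR depends on its canonical transcript of 14612 bases, against 2659 for CASP8. Before division by length the shCtrl means were 48.2 normalized CPM for CFLAR and 38.6 for CASP8. In the 6 KD libraries TNFRSF21 was at 1.52 ± 0.45, next to FAS at 1.15 ± 0.11, whose ranges overlapped, and FADD was at 9.71 ± 1.18, below CASP8 at 21.5 ± 2.23. The library preparation is not given in the sources used here, so whether reads covered whole transcripts is not known.

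In tumors no fall of TNFRSF21 was seen. TNFRSF21 had 7.22 to 24.5 normalized CPM in the 5 shCtrl tumors (median 14.1), 11.1 to 31.5 in sh#1 tumors (median 22.3) and 5.69 to 28.7 in sh#2 tumors (median 17.5). The 3 groups overlapped, and the lowest and the second highest values of all 15 tumors were both in the sh#2 group. The log2 fold change of CDH11 KD was 0.53 (SE 0.32, adjusted p = 0.516, edgeR), with 0.70 (SE 0.35) for sh#1 and 0.33 (SE 0.37) for sh#2, all positive in sign and none past the threshold. These levels rest on 4 to 30 human counts per tumor. Mouse Tnfrsf21 was counted in every tumor (2 to 16 counts) and made up 25.8% of the counts of both species together. How reads were assigned to a species is not stated, and its part in the result was not tested.

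**Figure D3:**
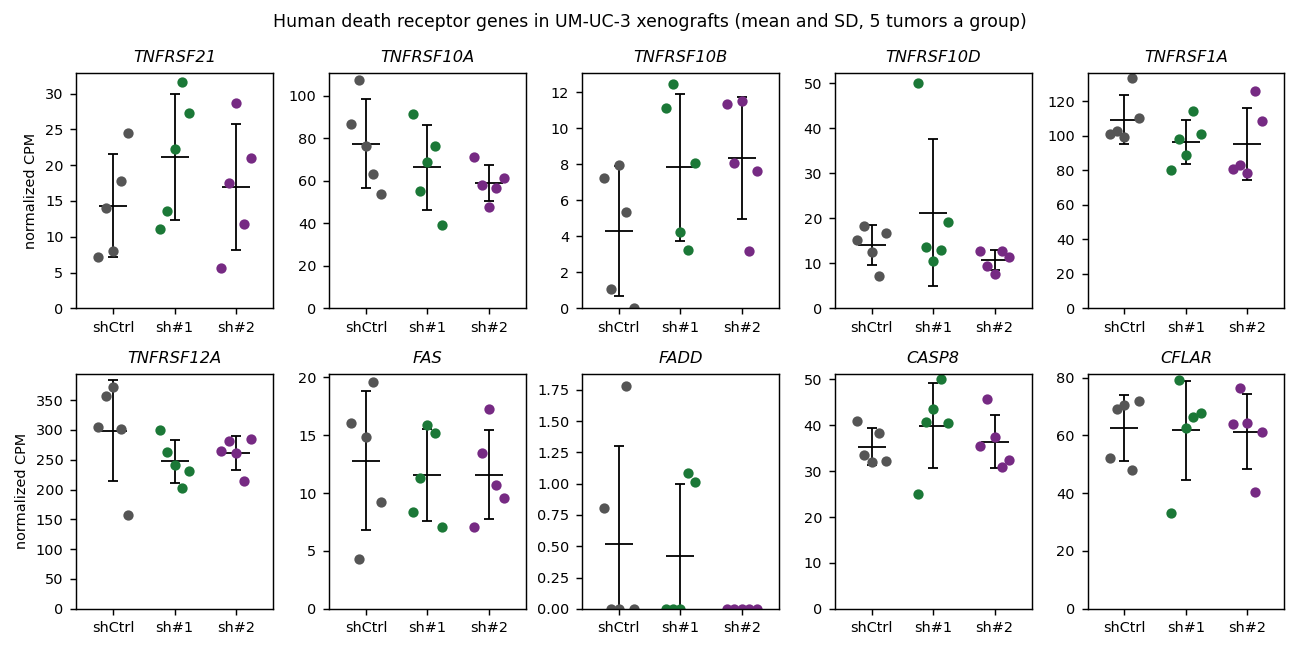
Normalized CPM (vertical axes, from 0) of the human genes in each xenograft tumor, by pool (horizontal axes), with 1 point per tumor and the mean ± SD of 5. All groups overlap, FADD has at most 2 counts in a tumor, and 1 sh#1 tumor stands at 49.9 for TNFRSF10D.

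Of the 10 members, 8 passed the low-count filter in tumors, and 0 were called between CDH11 KD and shCtrl at an adjusted p under 0.1 (edgeR). An unadjusted p under 0.05 was reached by 1 of them, TNFRSF10A, and DESeq2 called 0. In the same comparison 0.697% of all human genes were called higher and 0.817% lower. With sh#1 0 were called (0 at an unadjusted p under 0.05, 0 by DESeq2), against 0.773% of all genes higher and 0.708% lower. With sh#2 0 were called (TNFRSF10A alone at an unadjusted p under 0.05, 0 by DESeq2), against 1.36% higher and 1.32% lower. Between the hairpins 0 were called (TNFRSF10D alone at an unadjusted p under 0.05, 0 by DESeq2), against 0.642% higher and 0.544% lower. With so few genes called in tumors, a count of 0 among 8 is no contrast to the background.

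TNFRSF10A had a median of 76.4 normalized CPM in shCtrl tumors (53.6 to 107), 68.9 in sh#1 (39.4 to 91.6) and 57.8 in sh#2 (47.9 to 71.1). The groups overlapped, and the log2 fold change was −0.35 (SE 0.16, adjusted p = 0.348, edgeR). TNFRSF12A had a median of 306 in shCtrl tumors (158 to 372), 241 in sh#1 (203 to 300) and 264 in sh#2 (214 to 285). Its change was −0.25 (adjusted p = 0.444), and without the shCtrl tumor 5, the lowest of all, it was −0.41 and passed the threshold (adjusted p = 0.0284).

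TNFRSF1A had 78.5 to 133 normalized CPM over the 15 tumors, CASP8 25.0 to 50.0 and CFLAR 33.3 to 79.1. Their CDH11 KD changes were −0.18 (SE 0.12), 0.12 (SE 0.15) and 0.02 (SE 0.15). FAS, at 3 to 22 counts, changed by −0.15 (SE 0.28). None of these was called.

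The genes that failed the filter are given by their counts. FADD had 1, 0, 0, 2 and 0 counts in shCtrl tumors, 0, 0, 0, 1 and 1 in sh#1 tumors and 0 in every sh#2 tumor, 5 in all. Its fall in culture could not be examined with these tumor counts. TNFRSF10B had 9, 1, 7, 6 and 0 counts in shCtrl, 4, 11, 4, 3 and 8 in sh#1 and 8, 6, 12, 3 and 4 in sh#2 tumors. In shCtrl samples the mean of FADD was 39.4 normalized CPM in culture and 0.52 in tumors. The counts of culture and tumors came from different sequencers and pipelines. Human counts in shCtrl tumors were 635024 or more, and the part of depth in the gap between these means was not tested. RNF31 and IKBKG, at 13.1 and 32.2 in cultured shCtrl cells, had 0 counts in shCtrl tumors, and the part of the counting in this was not tested. They were named after their values were seen.

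The change under CDH11 KD in culture was set against that in tumors in 1 fit over 24 libraries, with the mean of both hairpins. For TNFRSF21 the culture change minus the tumor change was −2.52 (SE 0.41), given without a test because the gene was chosen on its culture change. Of the 7 other members that passed the filter in tumors, 0 differed at an adjusted p under 0.05 (edgeR), where 11.9% of all genes tested did. An unadjusted p under 0.05 was reached by 4: TNFRSF10A (0.59, adjusted p = 0.0604), TNFRSF1A (−0.44, adjusted p = 0.0890), TNFRSF12A (0.51, adjusted p = 0.113) and CASP8 (0.46, adjusted p = 0.150), and DESeq2 called 0. The fits without single tumors called up to 2 members. FADD and TNFRSF10B were in the fit too, but with the few tumor counts above it cannot decide whether their change differed.

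The wider pathway was read from a list of 107 other genes, the ligands, further receptors, adaptors, ubiquitin and kinase complex, executioner step, necroptosis genes and sheddases. In culture 62 of them passed the filter, and 8 rose and 6 fell under CDH11 KD (edgeR, the threshold above), with a median log2 fold change of 0.00, the same as over all genes tested. The background shares for this comparison were the 9.12% and 8.32% given above. The count of 14 was 9 without the shCtrl library 3, and 24 in a fit with 3 groups and the mean of both hairpins. With sh#1 alone 9 rose and 5 fell, where 11.8% of all genes tested were called higher and 10.6% lower. With sh#2 alone 18 rose and 14 fell, where 19.5% of all genes were called higher and 18.8% lower. Between the hairpins 6 were higher and 14 lower in sh#1, where 11.2% of all genes were called higher and 13.5% lower. Of the 14 calls for both hairpins, 9 were in the list of ubiquitin ligases, their regulators and kinases that act at these receptors, where 26 of 29 genes were tested.

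TNFAIP3, the ubiquitin-editing enzyme A20 that dampens NF-κB signaling, had 2.36 to 4.19 normalized CPM in shCtrl and 17.5 to 28.7 in KD libraries. BIRC3, the ubiquitin ligase cIAP2, had 30.9 to 42.6 in shCtrl and 157 to 255 in KD libraries. Neither gene overlapped between groups. The log2 fold changes were 2.77 (adjusted p = 7.42e-07, edgeR) for TNFAIP3 and 2.51 (adjusted p = 1.16e-05) for BIRC3. BIRC3 was higher with sh#2 than with sh#1 by 0.62, a called difference (adjusted p = 9.60e-09).

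Their partners TNIP1 (1.15), an A20-binding protein, and BIRC2 (0.78), the ligase cIAP1, rose too, as did TAB2 (0.51), a subunit of the TAK1 kinase complex, and RBCK1 (0.34), a subunit of the linear ubiquitin assembly complex. RNF31, the catalytic subunit of that same complex, fell by 0.67 (adjusted p = 0.0357, edgeR), and SPATA2, which brings the deubiquitinase CYLD to it, fell by 0.73. CUL3, the cullin scaffold that ubiquitinates caspase-8, had 31.2 to 34.7 normalized CPM in shCtrl and 5.33 to 10.4 in KD libraries and fell by 2.08 (adjusted p = 5.26e-07). Calls in this list went in both directions.

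For both hairpins together, 9.12% of all genes tested were called higher and 8.32% lower, and the counts that follow stand beside these shares. Among the remaining receptors 2 of 6 tested were called. RELT, a receptor of the superfamily, had 12.6 to 13.3 normalized CPM in shCtrl and 20.8 to 37.7 in KD libraries and rose by 1.06 (adjusted p = 0.00286, edgeR). TNFRSF11A, the receptor RANK, had 29.5 to 36.1 and 15.4 to 24.2 and fell by 0.80. Of 10 tested adaptors and initiator caspases FAF1, a FAS-associated factor, rose by 0.38 and the initiator caspase CASP2 fell by 0.56. LMNA, the lamin cut by executioner caspases, fell by 0.51 and was the 1 call for both hairpins among 15 genes of the executioner step. In this list sh#1 alone gave 2 calls (1 higher, 1 lower), where 11.8% of all genes were called higher and 10.6% lower. With sh#2 alone there were 7 calls (1 higher, 6 lower), where 19.5% of all genes were called higher and 18.8% lower. The 2 tested ligands, 2 sheddases and 1 necroptosis gene gave 0 calls for both hairpins and 0 with sh#1. With sh#2 both ligands and both sheddases were called higher, as were 19.5% of all genes tested. APP rose by 0.39 (adjusted p = 8.71e-06, edgeR) and the sheddases ADAM10 and MMP14 by 0.31 and 0.39. All 4 genes were also called lower in sh#1 than in sh#2, as were 13.5% of all genes tested.

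In tumors 59 of the 107 genes were tested, and 1 was called higher and 0 lower, with a median of 0.05 against 0.01 for all genes. The called gene was APP, the amyloid precursor, a fragment of which has been reported as a ligand of TNFRSF21. It had a median of 128 normalized CPM in shCtrl (98.0 to 151), 164 in sh#1 (152 to 203) and 164 in sh#2 tumors (137 to 193), which overlapped. The change was 0.41 (adjusted p = 0.0936, edgeR), and in 15 of 22 alternatives no pathway gene was called. TNFAIP3 changed by 0.87 (adjusted p = 0.336), BIRC3 by 0.45 (adjusted p = 0.456) and CUL3 by 0.14 (adjusted p = 0.827) in tumors.

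**Figure D4:**
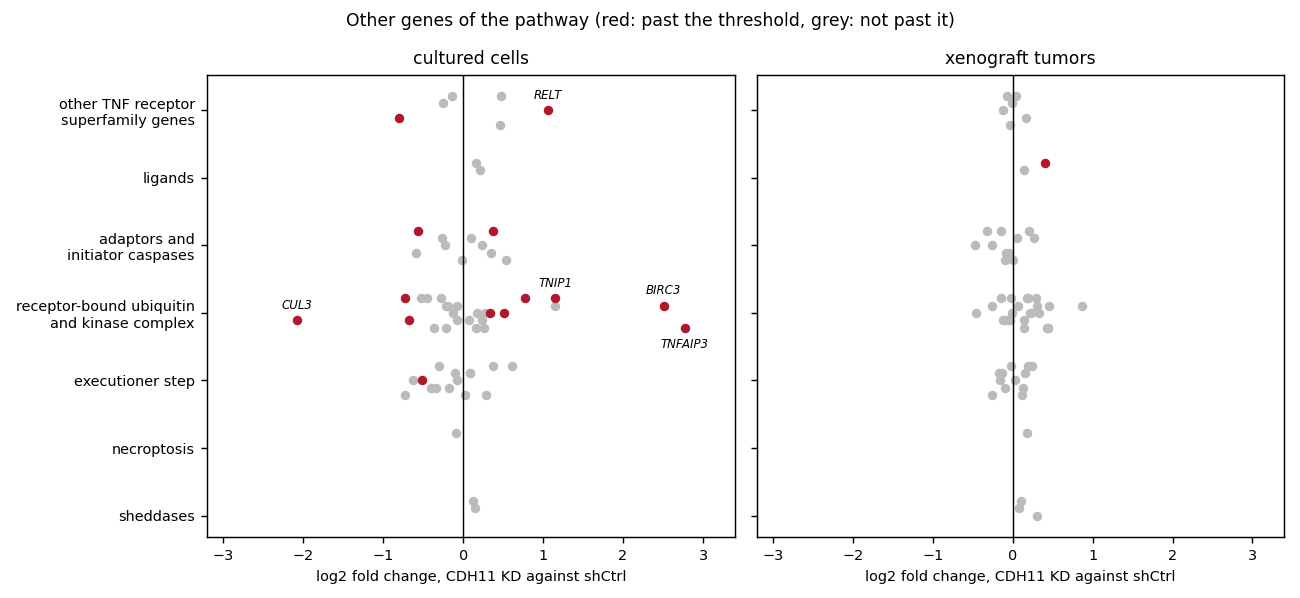
Log2 fold change of CDH11 KD against shCtrl (horizontal axes) for the tested pathway genes of each list (vertical axis), with 1 point per gene, red where the test was passed. TNFAIP3 (2.77), BIRC3 (2.51) and CUL3 (−2.08) lie far out in cultured cells, and APP (0.41) is the single red point in tumors.

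The genes whose levels followed TNFRSF21 most closely over the 9 cultured libraries were IRX3 (Pearson r = 0.98), PALLD (0.98), GORASP2 (0.98), CUL3 (0.97) and EED (0.96), out of 8109 genes that averaged 20 or more counts. These libraries form separate blocks of 3 shCtrl and 6 KD libraries for TNFRSF21, so r there follows the gap between the blocks. The points also share their pools and libraries. Over the same libraries r was 0.93 for FADD and 0.86 for TNFRSF1A, and −0.89 for TNFRSF10B. Over the 15 tumors the closest of 6444 genes were ME1 (0.76), RNF170 (0.75), POMK (0.73), TYW5 (0.73) and SLC30A5 (0.71). No gene was on both lists, and FADD and TNFRSF1A were at 0.24 and 0.17 in tumors.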

How the data were processed

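The authors deposited raw read counts per gene, without normalization, for 9 cultured libraries and, for human and mouse genes, 15 tumors. Per the paper's methods, cultured reads (single, 75 bp) were trimmed in CLC Genomics Workbench and mapped to hg38 with RaNAseq, and tumor reads were trimmed with trim galore and mapped to hg38 with HISAT2. The counting tool, annotation, strand setting, library kit and separation of species are not given in the sources used here. Counts for 13 listed genes of the cultured table, 1 of them in the pathway list, are not analysed here.

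From the counts, edgeR 4.0.16 in R 4.3.3 (filterByExpr, TMM, robust quasi-likelihood fit, Benjamini-Hochberg over all genes tested) compared both hairpins with shCtrl, each hairpin with shCtrl and the hairpins with each other, at thresholds of 0.05 in culture and 0.1 in tumors as in the paper. The fold-change cut that the paper added when it selected gene sets of cultured cells was not applied. The filter kept 9859 cultured and 9184 human tumor genes. All fold changes are on the log2 scale, first group minus second, SE being the fold change over the root of its F statistic. The fits were tested on simulated counts. Members and gene lists were chosen with earlier results of these data known. Named beside the members were listed genes past a threshold, the 5 genes most like TNFRSF21 in each system and CDH11. Alternatives were DESeq2 1.42.0, upper quartile scaling, other low-count filters, the replicate block, 3 groups, the mouse to human ratio as a covariate and leaving out each library. Gene positions come from GENCODE (hg38). No pair of replicates agreed within sampling noise, and each library entered on its own.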

Additional observations from a re-analysis of the deposited data

Results flagged for a closer look

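In 1 of 27 sets of 5 tumors examined, 1 tumor stood far from the rest of its group. TNFRSF10D was at 49.9 normalized CPM in the sh#1 tumor 1, from 18 counts, while the other 4 sh#1 tumors had 10.6 to 19.2. Chance alone flags about 1 in 20 such sets. The same tumor had the lowest human total (414849 counts) and the highest share of mouse counts (30.02%), and the part of these in the value was not tested. Without it the TNFRSF10D change under CDH11 KD was −0.16 in place of 0.06, neither past the threshold.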

How the results depend on the processing

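The calls of FADD, TNFRSF1A and TNFRSF10B in culture held in all 15 alternatives for both hairpins together, with log2 fold changes of −1.30 to −1.19, −0.67 to −0.56 and 0.77 to 1.00. CASP8 lost its call in 2 of 15, both by leaving out a shCtrl library. Leaving out single libraries gave 3 to 4 members called for CDH11 KD in culture, 4 to 5 for sh#1, 3 to 5 for sh#2 (3 without shCtrl 1) and 0 to 1 between hairpins, where DESeq2 and no low-count filter also gave 0. In tumors these fits gave 0 to 1 members for CDH11 KD, sh#1 and sh#2, the 1 being TNFRSF12A without shCtrl tumor 5. For the difference between culture and tumors they gave 0 to 2, with TNFRSF10A in each of the 5 fits that called any. The pathway genes called in culture were 14, or 24 with 3 groups and the mean of both hairpins, and 9 to 18 without single libraries (9 without shCtrl 3). In tumors upper quartile scaling, the replicate block and the mouse to human ratio as covariate gave 0 in place of 1, and single tumors left out 0 to 1.

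Changes near 0 reversed sign. TNFRSF10D in tumors was −0.23 with the mouse to human covariate, and −0.16 to 0.18 without single tumors, CFLAR in tumors −0.0037 with no low-count filter and −0.068 to 0.080 without single tumors, FAS −0.36 to 0.055 in tumors and −0.066 to 0.26 in culture without single libraries. The cause was not tested. Replicate numbers did not pair the samples. Correlations of same-numbered libraries were −0.01 to 0.06 in culture and −0.10 to 0.13 in tumors, and the replicate block gave 4 members called in culture for CDH11 KD, as without it, and 13 pathway genes. FADD and TNFRSF10B had too few tumor counts for the tests.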
